A study of Macaca fascicularis with 2 samples.

Results

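Oxidative phosphorylation genes were compared between notochordal cells and the other cells of a single-cell library from the nucleus pulposus (NP), the gelatinous core of the intervertebral disc, and the articular cartilage (AC) of cynomolgus monkeys. A rule on gene symbols set the members. Of 21371 genes counted, 76 belonged to the set, 63 in the nuclear genome (the *NDUFA*, *NDUFB*, *NDUFC*, *NDUFS*, *NDUFV*, *UQCR*, *ATP5* and *COX4* to *COX8* families with *SDHB* and *SDHD*) and 13 in the mitochondrial genome. The library pooled AC and NP of 1 male wild type monkey and AC of another, both 3 years old, and their cells carried antibody tags A951 to A954. No source read here pairs a tag with a tissue or an animal, so AC and NP were not compared. Notochordal cells, the cells of the embryonic notochord that persist in the NP, were those with 5 or more reads each of *KRT19* (keratin 19) and *TBXT* (brachyury, the notochord transcription factor). There were 310 of them among 5674 singly tagged cells, 67 with tag A951, 236 with A952, 5 with A953 and 2 with A954, and the other 5364 cells formed the comparison group.

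Oxidative phosphorylation takes place in the inner mitochondrial membrane. Complex I takes electrons from NADH and complex II from succinate, complex III passes them to cytochrome c, complex IV gives them to oxygen, and complex V, the ATP synthase, uses the proton gradient that complexes I, III and IV build. Mitochondrial DNA encodes a few core subunits of complexes I, III, IV and V, while the nucleus encodes the remaining subunits, all of complex II and the factors that assemble the complexes. The disc core and cartilage have no blood vessels, and their cells are known for drawing much of their ATP from glycolysis.

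All values came from 1 library without replicates. Groups were therefore described by their sizes and not tested. Values are also shown by tag, but the library held 1 NP sample from 1 monkey. The tags are thus no replicate discs or animals for notochordal cells. Levels of single genes by tag are given for notochordal cells of A951 and A952 alone, the tags with at least 20 of them. Intervals given are exact 95% intervals and cover counting error only, an upper limit for a share of 0 is 3 counts of the total, and since reads were counted without molecular identifiers, they are too narrow for molecules. A level is given in rpm, the reads of a gene summed over the cells of a group per 1000000 reads of that group, and a difference as the log2 ratio of notochordal over other cells. Levels were not corrected for gene length, so levels of different genes were not compared as amounts of transcript. A gene called most abundant in a list had the most reads. In pooled levels, fewer cells with a transcript and less transcript per cell cannot be told apart. The median notochordal cell had 186370 reads on 4061 genes, and the median other cell 198674 reads on 3816 genes. No cell barcode occurred more than once.

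Notochordal markers that the choice of cells did not use were higher in the chosen cells, except 1. *NCAM1*, a cell adhesion molecule, was at 506 rpm in notochordal and 25.2 rpm in the other cells, *CDH2* (N-cadherin) at 119.6 and 1.16 rpm, and *SHH* (sonic hedgehog) at 98.7 and 0.846 rpm. *NOTO*, a transcription factor of the embryonic notochord, was at 0.0151 rpm, with 1 read. *COL2A1*, the main cartilage collagen, was at 1269 rpm in notochordal and 20075 rpm in the other cells, and *ACAN* (aggrecan) at 14440 and 3967 rpm. The 4 endothelial markers summed to 3.07 and 2.60 rpm with *VWF* the most abundant, and the 6 immune markers to 22.9 and 22.6 rpm with *CD68* the most abundant. The immune markers went in different directions. *CD68*, at 9.64 and 17.4 rpm, *CSF1R* and *MS4A1* were lower in notochordal cells. *CD14*, at 7.46 and 3.14 rpm, *CD3E*, at 4.39 and 1.05 rpm, and *PTPRC*, at 1.30 and 0.700 rpm, were higher. For *CD14*, 1 cell held 53.5% of the notochordal reads. Of 5 erythroid markers only *ALAS2* was listed, at 0.0151 and 0.0454 rpm. The 5 fibroblast markers summed to 1042 and 3765 rpm, with most reads from *COL1A2* in notochordal cells and from *COL3A1*, at 137.8 and 1885 rpm, in the others. *COL1A1* was at 10.8 and 578.2 rpm and *COL1A2* at 852.3 and 882.7 rpm. The 4 osteoblast and osteoclast markers summed to 4.42 and 53.1 rpm, with most reads from *BGLAP*, at 3.07 and 19.8 rpm, in notochordal cells and from *IBSP*, at 0.575 and 30.0 rpm, in the others, and with *ACP5* at 0.439 and 0.0469 rpm. The 1 muscle marker listed, *ACTA1*, was at 22.2 rpm in notochordal and 1.07 rpm in the other cells. The part of these marker differences in the results was not tested. In 13 of the 310 the lower of the 2 counts was 5 to 9 reads, and in 4 cells outside the group it was 3 or 4. A further reading of the rule, 5 reads of both genes added together, takes in 404 cells.

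The nuclear genes as a group were slightly higher in notochordal cells. Summed over the set they reached 10121 rpm in notochordal and 8499 rpm in the other cells, a log2 ratio of 0.25 (0.25 to 0.26), with 0.38 within tag A951 and 0.42 within A952. The sum was 9924 and 10157 rpm in notochordal cells of tags A951 and A952, and 7616, 7603, 9514 and 8499 rpm in the other cells of tags A951 to A954, so these 2 notochordal sums lay above all 4 others. The 5 notochordal cells of A953 were at 10638.5 rpm and the 2 of A954 at 7770 rpm. The median log2 ratio was 0.26 over the 60 nuclear members with a mean of at least 1 rpm in the 2 groups, and 0.35 over all 11215 genes that passed the same minimum. The 100 genes with the most reads held 21.8% of the reads of notochordal cells and 35.5% of those of the other cells. With these genes left out of the total, the nuclear median became -0.014 and that of all genes 0.06. With the pooled median of all genes set to 0 the nuclear median became -0.084, so the sign of the small pooled shift depended on the scale. Within the tags the nuclear median lay above that of all genes, at 0.31 against 0.21 in A951 and 0.38 against 0.33 in A952. By means of ln(1 + rpm) it was 0.37 against 0.10. The 3 nuclear members below the minimum were *COX6A2*, *COX6B2* and 1 of the 2 rows of *ATP5MC3*.

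Large differences were sparse among the nuclear members. Past 2-fold, 6 of the 60 (10%) were higher in notochordal cells and 2 (3.33%) lower, against 27.4% and 12.4% of all genes tested. At 10 rpm or more, the same counts of 6 and 2 among 59 members stood against 23.7% and 11.0% of 7939 genes. With the median of all genes set to 0, no member was past 2-fold higher and 4 were lower, against 19.6% and 17.4% of all genes. When *KRT19* and *TBXT* reads were added together, so that 94 more cells counted as notochordal, *NDUFS3* was the 1 member past 2-fold higher and *COX4I2* the 1 lower, against 23.6% and 9.33% of all genes. Counted by direction alone, 45 of the 60 members (75%) were above the level of the other cells, as were 64.4% of all genes. Past 1.5-fold in the pool and within both tags A951 and A952, 7 members were higher and 3 lower, against 26.2% and 14.1% of all genes. By the levels in tags, 26 of the 60 members had both notochordal levels above all 4 levels of the other cells and 8 had both below, which is 43.3% and 13.3% beside 38.2% and 21.7% of all genes. With every cell thinned to 50000 reads, which left 299 notochordal and 5159 other cells, 43 of the 60 members were found in a larger share of notochordal cells and 17 in a smaller one, with a median difference of 5.13 percentage points. Of all genes tested, 62.7% were found in a larger share of notochordal cells, with a median difference of 1.29 points, and the genes found per thinned cell were 2796 and 2549.

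**Figure D1:**
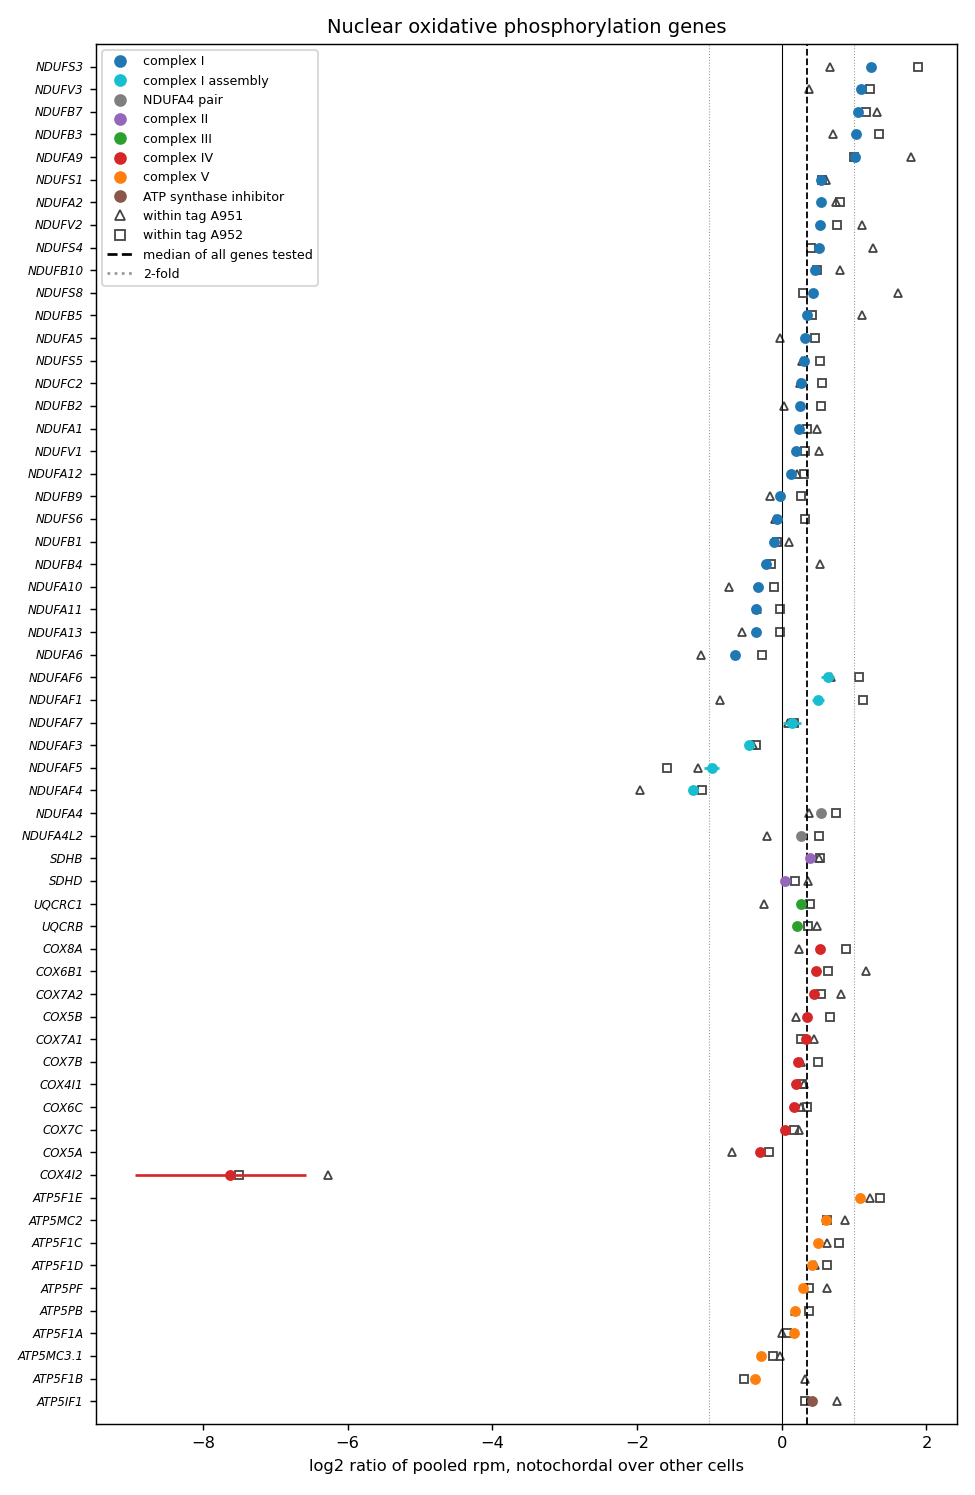
Log2 ratio of pooled rpm, notochordal over other cells, for the 60 nuclear members by complex, with exact counting intervals (filled circles) and the ratios within tags A951 (triangles) and A952 (squares). Most members lie near the dashed median of all genes tested at 0.35, while *COX4I2* stands at -7.62; its value within tag A951 is set by a floor of 3 reads in place of 0.

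Complex I had the most members, 27 subunits, and 5 of the 6 genes past 2-fold higher. *NDUFS3*, a core subunit of the hydrophilic arm, was at 58.3 and 116.5 rpm in notochordal cells of tags A951 and A952, and at 36.8, 31.5, 44.8 and 49.0 rpm in the other cells of tags A951 to A954. Both notochordal levels were above all others, and the pooled log2 ratio was 1.24 (1.20 to 1.27), the highest of the nuclear set, with 0.66 within tag A951 and 1.89 within A952. *NDUFV3*, an accessory subunit of the NADH-binding module, was at 49.9 and 89.7 rpm in notochordal cells and between 33.8 and 39.9 rpm in the others, a log2 ratio of 1.10. Its ratio was 0.38 within tag A951 and 1.22 within A952, so like *NDUFS3* it was past 2-fold only in tag A952.

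*NDUFB7* and *NDUFB3*, accessory subunits of the membrane arm, had log2 ratios of 1.05 and 1.03. *NDUFB7* was at 241.0 and 202.9 rpm in notochordal cells and between 90.8 and 114.7 rpm in the others. *NDUFB3* was at 41.4 and 66.6 rpm against 25.4 to 35.0 rpm, the narrower of the 2 separations, and was past 2-fold in tag A952 (1.34) and not in A951 (0.70). *NDUFA9*, an accessory subunit of the hydrophilic arm, was at 107.8 and 64.9 rpm against 31.1 to 45.4 rpm, a log2 ratio of 1.01. At the other end, *NDUFA6*, an accessory subunit, was at 59.5 and 90.0 rpm in notochordal cells and at 129.3, 108.8, 156.7 and 135.7 rpm in the others. All 4 levels of the other cells were higher, and the pooled log2 ratio was -0.65 (-0.69 to -0.61). After thinning, *NDUFA6* was found in 36.1% of notochordal and 49.4% of the other cells. Over the 27 subunits the median log2 ratio was 0.30, and no subunit was past 2-fold lower. Of the subunits 19 (70.4%) were above and 8 below the other cells, beside 64.4% of all genes above, and 18.5% were past 2-fold higher, beside 27.4% of all genes.

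The 6 assembly factors of complex I went partly the other way. *NDUFAF4*, a factor for an early intermediate of the membrane arm, was at 32.8 and 62.1 rpm in notochordal cells of tags A951 and A952, and at 127.0, 133.2, 131.9 and 129.9 rpm in the other cells of the 4 tags. The levels of the other cells were nearly the same in every tag, and both notochordal levels were well below them. The pooled log2 ratio was -1.23 (-1.28 to -1.18), with -1.95 within tag A951 and -1.10 within A952. Detection after thinning was 35.1% of notochordal and 56.7% of the other cells.

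*NDUFAF5*, which modifies a core subunit of complex I, was at 12.8 and 7.09 rpm against 28.5, 21.3, 27.5 and 18.9 rpm. Its pooled log2 ratio of -0.97 includes 1 notochordal cell that held 27.7% of the notochordal reads of the gene. *NDUFAF3*, which acts with *NDUFAF4* in assembly, was at 93.0 and 111.6 rpm against 122.5 to 167.1 rpm, a log2 ratio of -0.46. The other 3 factors were not lower, with log2 ratios of 0.63 for *NDUFAF6*, 0.50 for *NDUFAF1* and 0.15 for *NDUFAF7*. *NDUFAF1* differed between tags, with -0.85 within A951 and 1.13 within A952. In sum the 6 factors were at 218.9 rpm in notochordal and 333.0 rpm in the other cells, a log2 ratio of -0.61, with -0.86 within tag A951 and -0.50 within A952. The 27 subunits were at 3586 and 3154 rpm, a log2 ratio of 0.19, with 0.34 and 0.39 within the tags.

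Complexes II and III had 2 members each, and none was past 2-fold. *SDHB*, the iron-sulfur subunit of complex II, was at 74.8 and 68.1 rpm in notochordal cells and between 47.3 and 57.0 rpm in the others, a log2 ratio of 0.39. *SDHD*, a membrane anchor of complex II, had a ratio of 0.04, and its notochordal levels of 75.9 and 66.6 rpm lay within the range of 58.4 to 82.3 rpm of the others. In complex III, *UQCRB* had a log2 ratio of 0.21 and *UQCRC1*, a core subunit, 0.27, with -0.24 within tag A951 and 0.39 within A952. *SDHA*, *SDHC* and further *UQCR* symbols had no row among the genes counted. Nuclear subunits of these complexes under other symbols were not analysed here.

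The largest difference of the whole set was in complex IV. *COX4I2*, the isoform of subunit IV known for its hypoxia-inducible expression in lung and other tissues, had 7 reads in all 310 notochordal cells, 1 read each in 7 cells of tag A952. Its level was 0 and 0.136 rpm in notochordal cells of tags A951 and A952, and 19.0, 24.8, 13.4 and 24.7 rpm in the other cells of the 4 tags. The pooled levels of 0.106 and 20.9 rpm gave a log2 ratio of -7.62 (-8.94 to -6.58), or 197.1-fold lower (95.6 to 490.3). None of the 11215 genes tested had a lower ratio. Within tag A951, with 0 reads set to a floor of 3 reads in the group, the gene was at least 77.3-fold lower.

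*COX4I2* was not a general gene of the other cells either. Of the 5364 others, 634 (11.8%) had a read, and the 295 with 5 or more reads (5.50%, 4.90 to 6.14%) held 98.4% of all its reads there. Such cells occurred in every tag, at 4.30%, 5.02%, 4.50% and 6.85% in A951 to A954. None of the 310 notochordal cells reached 5 reads, which allows a share of up to 0.968% by the limit of 3 counts. After thinning, a read was found in 0.669% of notochordal and 7.09% of the other cells. With the 94 further cells counted as notochordal, the log2 ratio was -4.41.

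*COX4I1*, the isoform of subunit IV used in most tissues, did not share this pattern. It was at 396.2 and 440.3 rpm in notochordal cells and at 321.6, 363.9, 382.4 and 389.0 rpm in the others, a log2 ratio of 0.19. The ratio of *COX4I2* to *COX4I1* reads, in which gene length cancels between groups, changed by -7.82 on the log2 scale, with -6.57 within tag A951 and -7.78 within A952.

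**Figure D2:**
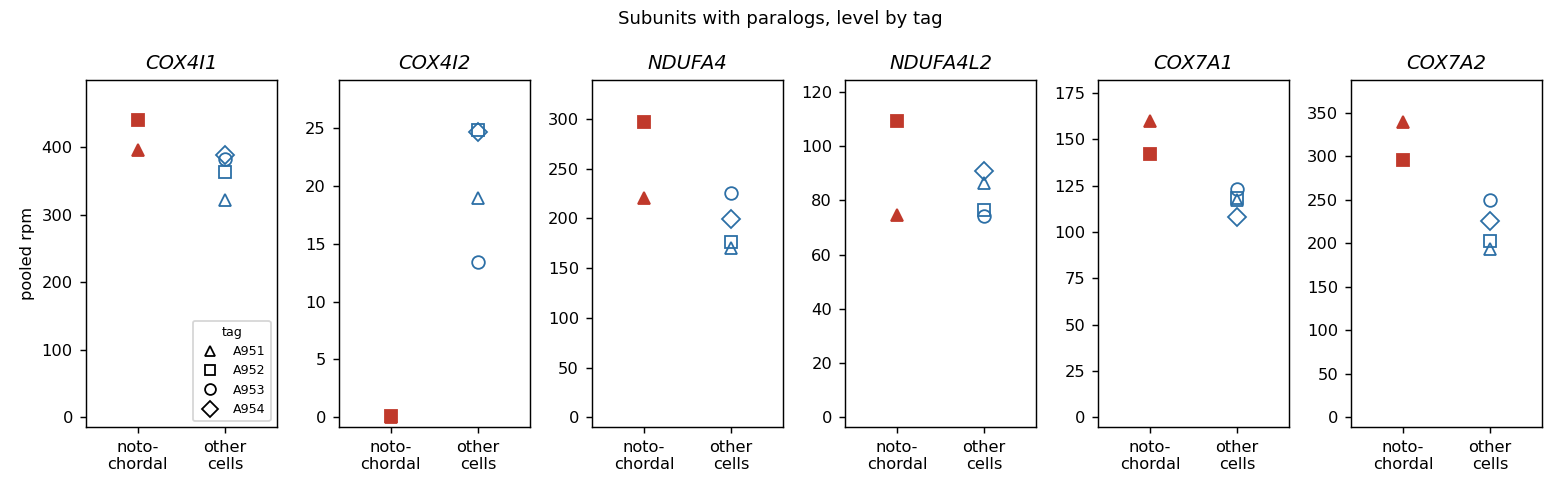
Pooled rpm of 6 subunits with a paralog in notochordal cells of tags A951 and A952 (filled) and in the other cells of all 4 tags (open), each panel from 0. *COX4I2* is at 0 and 0.136 rpm in notochordal cells and between 13.4 and 24.8 rpm in the others, while *COX4I1*, *COX7A1* and *COX7A2* are higher in both notochordal groups on the rpm scale.

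The *COX7A* isoforms were both higher in rpm. *COX7A1*, the isoform typical of heart and muscle, was at 160.0 and 142.3 rpm in notochordal cells against 107.9 to 122.9 rpm, and *COX7A2*, the more widely used isoform, at 339.3 and 295.6 rpm against 193.2 to 250.2 rpm. Their log2 ratios were 0.34 and 0.45, or -0.011 and 0.10 with the median of all genes set to 0. The ratio of *COX7A1* to *COX7A2* changed by -0.11 in the pool, -0.37 within tag A951 and -0.28 within A952. *COX5A* and *COX5B* are separate subunits and not isoforms in mammals. *COX5A* was at 70.5 and 102.6 rpm against 113.8 to 142.8 rpm, a log2 ratio of -0.31, and *COX5B* had a log2 ratio of 0.35, equal to the median of all genes, with 257.1 and 359.1 rpm against 224.4 to 318.7 rpm, with the A951 level inside the range of the others. *COX8A* (0.53), *COX6B1* (0.47) and *COX7B* (0.23) were within 2-fold in the pool. *COX6B1* was past 2-fold within tag A951 (1.17) and not within A952 (0.64). *COX6A2*, a muscle isoform, had 0 reads in notochordal cells and 53 in the others, and *COX6B2*, a testis isoform, had 2 and 124.

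*NDUFA4* was first described in complex I and is now known to bind complex IV, and *NDUFA4L2* is its hypoxia-inducible paralog. *NDUFA4* was at 220.9 and 296.6 rpm in notochordal cells and between 169.9 and 225.2 rpm in the others, a log2 ratio of 0.54, and 1 of the 2 notochordal levels lay within the range of the others. *NDUFA4L2* was at 74.7 and 109.3 rpm against 86.4, 76.2, 74.3 and 90.7 rpm. Its log2 ratio was 0.26, with -0.21 within tag A951 and 0.52 within A952, so it had no common direction in the 2 tags. A near absence in notochordal cells was thus not shared by this other hypoxia-inducible member.

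Complex V summed to 2248 against 1599 rpm, 0.49 on the log2 scale, and to 1460 against 1228 rpm, or 0.25, without *ATP5F1E*. *ATP5F1E*, the epsilon subunit of the catalytic head, was at 764.6 and 805.4 rpm in notochordal cells and at 328.5, 313.5, 468.5 and 347.9 rpm in the others. Its log2 ratio was 1.08 (1.07 to 1.10), with 1.22 and 1.36 within the tags, and no notochordal cell held more than 1.70% of its reads. *ATP5MC2*, a gene for the membrane ring subunit c, was at 424.6 and 353.0 rpm against 219.3 to 251.0 rpm, a log2 ratio of 0.61. Of the 2 rows of *ATP5MC3*, another gene for this subunit, the row above 1 rpm had -0.28. The alpha subunit *ATP5F1A* had 0.18 and the catalytic beta subunit *ATP5F1B* -0.37, and *ATP5F1B* went in different directions within the tags (0.32 and -0.52). *ATP5IF1*, the inhibitor of ATP hydrolysis by the synthase, was at 237.7 and 204.0 rpm against 139.9 to 167.1 rpm, a log2 ratio of 0.41. Reads that fit several places were counted, so reads of near-identical copies of these short genes may be shared.

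Among the other cells alone, no nuclear member was past 2-fold between tags, and most were highest in A953. The level of a nuclear member in its highest tag was a median of 1.32 times that in its lowest, beside 1.41 for all genes tested and 1.33 for genes at 10 rpm or more. Past 2-fold were 0 of the 60, against 19.0% of all genes tested and 8.09% of those at 10 rpm or more. In 42 of the 60 (70%) the highest tag was A953, beside 3274 (29.2%) of all 11215 genes tested. *NDUFB4*, an accessory subunit of complex I, was at 332.6 rpm in A953 and between 194.9 and 197.5 rpm in the other tags, and *NDUFV2*, of the NADH-binding module, at 119.6 rpm against 70.1 to 89.1 rpm. Only *COX4I2* spread more among the nuclear members, from 13.4 to 24.8 rpm.

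The mitochondrial genes, summed, were slightly lower in notochordal cells. They reached 13454 rpm in notochordal and 15702 rpm in the other cells, a log2 ratio of -0.22 (-0.23 to -0.22). Without the cells under 0.1% mitochondrial reads, described below, this ratio was -0.13. By tags the sum was 11192 and 13840 rpm in notochordal cells of A951 and A952. It was 16510.3 rpm in the 5 notochordal cells of A953 and 16813.5 rpm in the 2 of A954. The other cells of A951 to A954 were at 14694, 14935, 16963 and 15559 rpm. The notochordal sums of A951 and A952 thus lay below all sums of the other cells, but those of A953 and A954 did not. The median share per cell did not separate in this way, at 1.39% in notochordal cells of A952 and 1.36% in the other cells of A951. *ND6* and *CYTB*, subunits of complexes I and III, were listed at 0 in every cell, which left 11 genes. Of these, 1 (9.09%) was past 2-fold lower and 0 higher, against 12.4% and 27.4% of all genes.

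That gene was *ND3*, a core subunit of complex I. It was at 546.4 and 602.9 rpm in notochordal cells of tags A951 and A952, and at 1274, 1275, 1814 and 1416 rpm in the other cells of A951 to A954. Both notochordal levels were below all others by more than 2-fold, and the pooled log2 ratio was -1.28 (-1.29 to -1.26), with -1.22 and -1.08 within the tags. *ND3* made up 4.53% of the mitochondrial reads of notochordal cells and 9.41% of those of the other cells. The log2 ratio of these shares, which count *ND3* itself in the total, was -1.05.

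The remaining mitochondrial genes were within 2-fold in the pool. *COX2*, a core subunit of complex IV that receives electrons from cytochrome c, was at 1364 and 2280 rpm in notochordal cells against 2783 to 3168 rpm, a log2 ratio of -0.52 in the pool, -1.03 within tag A951 and -0.30 within A952. *ND2* and *ND4*, of the membrane arm of complex I, also had both notochordal levels below all others, with log2 ratios of -0.18 and -0.23. *COX3*, another core subunit of complex IV, had a log2 ratio of -0.63. The other cells stood at 3442 rpm in tag A953 and at 1483 to 1842 rpm in the other tags, and the ratio was -0.09 within A951 and -0.62 within A952. *COX1*, which holds the site of oxygen reduction, went the other way at 0.40, with 676.3 and 1102 rpm against 683.5 to 857.7 rpm, and with -0.02 within tag A951 and 0.61 within A952. *ATP6* (0.22), *ND5* (0.14), *ATP8* (0.02), *ND1* (-0.02) and *ND4L* (-0.06), subunits of complexes V and I, were close to 0. Without the cells under 0.1% mitochondrial reads, *ND1* was at 0.07 and *ND4L* at 0.03. With the total taken without the 100 genes of most reads the summed ratio was -0.50, and with the median of all genes set to 0 it was -0.57.

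**Figure D3:**
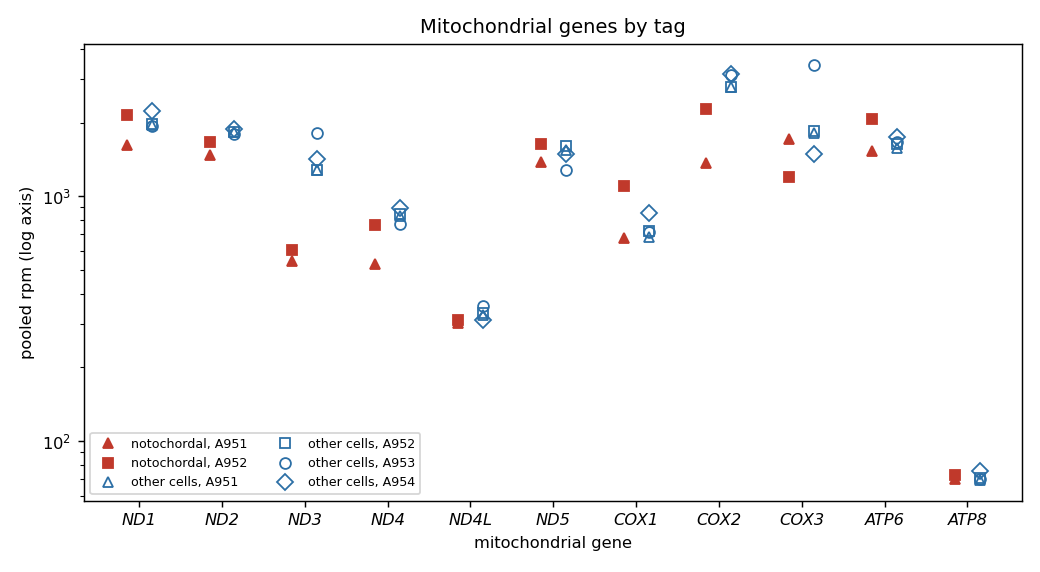
Pooled rpm (log axis) of the 11 mitochondrial genes with reads, in notochordal cells of tags A951 and A952 (filled) and the other cells of the 4 tags (open). *ND3* is at 546.4 and 602.9 rpm in notochordal cells and at 1274 rpm or more in the others, and *COX3* is high at 3442 rpm in the other cells of tag A953.

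In single cells, the nuclear set took a median of 1.03% of the reads of a notochordal cell and 0.790% of those of another cell, with middle ranges (first to last quartile) of 0.804 to 1.19% and 0.630 to 1.00%. The mitochondrial set took medians of 1.35% and 1.46%. The ranges overlapped widely for both. Across cells, the nuclear and the mitochondrial share had a Spearman correlation of 0.14 over 310 notochordal and 0.26 over 5364 other cells, as a description of shares of the same library and depth. The nuclear share had a correlation near 0 with the reads of a cell.

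A few notochordal cells had almost no mitochondrial reads. Under 0.1% of reads were mitochondrial in 18 of 310 notochordal cells (5.81%, 3.48 to 9.02%) and in 4 of 5364 others (0.0746%, 0.0203 to 0.191%). The limit was chosen after the values were seen, in a gap among notochordal cells between 0.0724% and 0.146%; the nearest other cell above it was at 0.107%. The 18 cells occurred in both tags, 5 of 67 (7.46%) in A951 and 13 of 236 (5.51%) in A952. They had a median of 44 mitochondrial reads, where the other 292 notochordal cells had 2524.

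These 18 cells were not poor in other reads. Their median was 229913 reads and 4340 genes, beside 185576 reads and 4030 genes in the other 292, and ribosomal protein genes took 8.92% and 7.98% of reads. Their mitochondrial sum, by which they were chosen, was at -5.81 on the log2 scale. The nuclear set had a summed log2 ratio of 0.01 and a median of -0.004 over the 60 genes, beside a median of -0.48 over all genes tested. Notochordal markers were present, *NCAM1* at 342.8 rpm beside 517.5 rpm and *SHH* at 92.7 beside 99.1 rpm. The 20 regulators of mitochondrial biogenesis had a median log2 ratio of -0.74, with 15 lower (75%) and 5 higher, beside 65.7% of all genes lower. *TFAM*, the packaging factor of mitochondrial DNA, had reads in 8 of the 18 cells (44.4%) and in 42.8% of the 292, at 14.6 and 56.7 rpm. *POLRMT*, the mitochondrial RNA polymerase, had reads in 0 of the 18 and in 56 of the 292 (19.2%). The limit of 3 counts allows up to 16.7% of the 18, and a difference between these shares is not firm with so few cells. Of the 4 other cells with as few mitochondrial reads, 2 had 150 and 95 reads of *KRT19* and no read of *TBXT*. Without all these cells the summed mitochondrial ratio was -0.13, and *ND3* remained at -1.19.

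**Figure D4:**
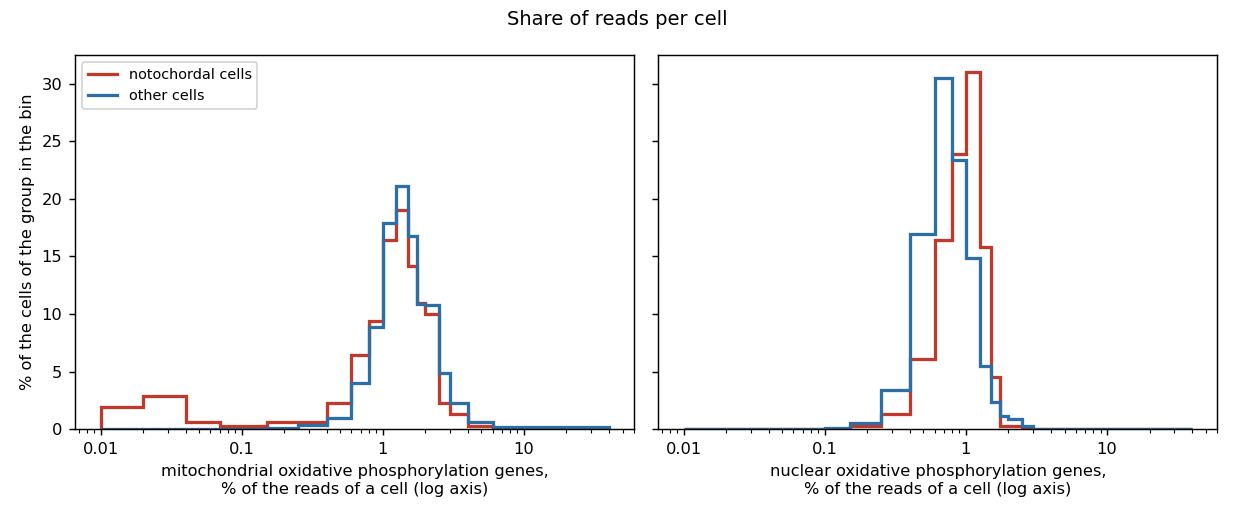
Share of the reads of each cell on mitochondrial (left) and nuclear (right) members, as percent of the cells of a group in bins on a log axis, for 310 notochordal and 5364 other cells. Of the notochordal cells, 18 lie under 0.1% mitochondrial reads with few cells between them and the main group. The nuclear shares of all 310 notochordal cells have a median of 1.03%, beside 0.790% in the others.

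Genes that feed or maintain oxidative phosphorylation were compared from lists by the same measure. These lists, like the set itself, were drawn up with earlier results of the data known. For all genes tested the median was 0.35, with 27.4% past 2-fold higher and 12.4% lower, and the shares of each list are given to be read beside these. Of 23 glycolysis genes, 17 were listed among the genes counted, and all 17 passed the minimum and were tested. Their median log2 ratio was 0.55, with 4 (23.5%) past 2-fold higher and 1 (5.88%) lower. *PFKFB3*, which makes the activator of phosphofructokinase, was at 263.5 and 235.3 rpm in notochordal cells and between 32.4 and 44.0 rpm in the others, a log2 ratio of 2.62. *SLC2A3*, the glucose transporter GLUT3, had 1.48, *SLC16A1*, the lactate transporter MCT1, -1.42 (54.3 against 145.3 rpm), and *HK1*, a hexokinase, -0.95.

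The list of the TCA cycle and of pyruvate entry had 25 genes tested, a median of 0.48 and 9 genes (36.0%) past 2-fold higher, with 0 lower. Its extremes were *PDP1* (2.35) and *PDK2* (1.90), the phosphatase and a kinase that switch pyruvate dehydrogenase on and off, and *DLST* (-0.42) and *MDH2* (-0.25), enzymes of the cycle. Of the electron carriers 16 were tested, with a median of 0.66, 6 (37.5%) higher and 0 lower. *COQ8A* (2.04) and *COQ7* (2.03), of ubiquinone synthesis, were the highest, and *GPD2* (-0.90), the mitochondrial glycerol phosphate dehydrogenase, and *ETFA* (-0.36), an electron transfer flavoprotein, the lowest.

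Assembly factors of all complexes (38 tested) had a median of 0.29, with 7 (18.4%) higher and 3 (7.89%) lower. *TTC19*, a complex III factor, was at 83.2 and 81.9 rpm against 26.2 to 30.9 rpm, a log2 ratio of 1.54, and *TMEM70*, a complex V factor, at 12.1 against 27.9 rpm, a log2 ratio of -1.20. *COX18*, which inserts a complex IV subunit, had 1.68 from few cells, with 38.8% of its notochordal reads in 1 cell. *NDUFAF4* was the lowest of this list. The regulators of mitochondrial biogenesis (20 tested) had a median of 0.09, 3 (15.0%) higher and 4 (20.0%) lower. *GABPB1*, a subunit of the factor NRF2 that binds promoters of many nuclear respiratory genes, was at 28.2 against 106.1 rpm, a log2 ratio of -1.91. The coactivators *PPARGC1A* (1.93) and *PPARGC1B* (-1.84) and the receptor *ESRRG* (2.75) were at or under 10.2 rpm in each group, and 1 cell held 32.4% of the notochordal reads of *PPARGC1A*.

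The mitochondrial transport and membrane list (24 tested) had a median of 0.10, 2 (8.33%) higher and 2 (8.33%) lower. *SLC25A4*, an ADP and ATP exchanger, had a log2 ratio of 1.01. *TIMM44*, of the protein import motor, was at 25.7 against 73.6 rpm (-1.52), and *UCP2*, an uncoupling protein, had -1.40, with -4.38 within tag A951, -0.53 within A952 and 53.9% of its notochordal reads in 1 cell. *UCP1* stood at 3.96, but 1 cell held 95.9% of its notochordal reads. Of antioxidant and mitophagy genes 11 were tested, with a median of 0.96, 5 (45.5%) higher and 1 (9.09%) lower. *SOD2*, the superoxide dismutase of the mitochondrial matrix, was at 111.5 and 61.9 rpm in notochordal cells and at 968.6, 1032, 1412 and 1340 rpm in the others, a log2 ratio of -3.58. *GPX4*, which reduces lipid peroxides, was at 360.6 and 447.7 rpm against 114.4 to 144.8 rpm (1.68), and *PRDX5*, a peroxiredoxin, had a pooled log2 ratio of -0.10 but 0.53 within tag A951 and 0.14 within A952.

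Ribosome genes gave a comparison of other large complexes. The mitochondrial ribosome (61 tested) had a median of 0.03, with 4 (6.56%) higher and 5 (8.20%) lower, from *MRPL23* (1.57) and *MRPS30* (1.18) to *MRPL14* (-1.57) and *MRPS22* (-1.52). The cytosolic ribosome list (65 tested) had a median of -0.24, 3 (4.62%) higher and 1 (1.54%) lower. Its symbol rule also took in genes of S6 kinases, which are no ribosomal proteins and include its 2 highest values, *RPS6KA2* (4.30) and *RPS6KL1* (1.83, with 82.5% of its notochordal reads in 1 cell). Without them 56 genes remained, with a median of -0.27, 0 higher and 1 lower, *RPL36* (-1.04), followed by *RPL27A* (-0.79).

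**Figure D5:**
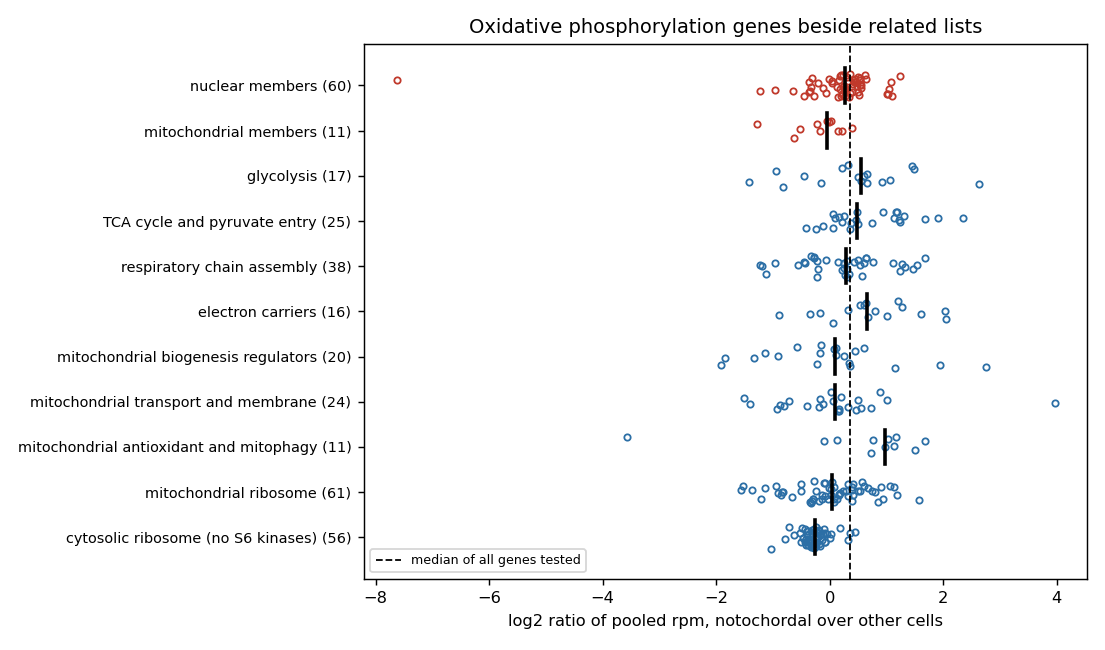
Log2 ratio of pooled rpm, notochordal over other cells, for every tested gene of the nuclear and mitochondrial members (red) and of 9 related lists (blue), with the median of each list (bar) and of all genes tested (dashed, 0.35). The nuclear members cluster around 0.26 apart from *COX4I2*, and *SOD2* stands apart at -3.58 in the antioxidant list.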

How the data were processed

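Single cells were captured on the BD Rhapsody system and their cDNA was amplified by TAS-seq. Reads were aligned with HISAT2 2.2.1 and assigned to genes with featureCounts 2.0.2 (versions from the submitters' processing notes), and the authors deposited the raw counts, as whole numbers for each gene in each cell, without molecular identifiers or normalization. The genome build is not given in the sources used here. Reads fitting several places were counted. A second table with 1358 columns of cells that no label ties to a sample was not used, nor were 42 doublets and 7 untagged cells. Cells had 24907 to 1649566 reads. Counts were summed per group and divided by the reads of the group. Genes with a mean of 1 rpm or more over the 2 groups were tested, a difference past 2-fold was counted, and no p-value was computed for 1 library. Intervals are exact Poisson or binomial at 95%. The named genes were the 5 highest and 5 lowest nuclear members, mitochondrial genes, SDH genes and paralogs, and the 2 highest and 2 lowest of each list (1 gene of the antioxidant and mitophagy list is not reported here); *NDUFA9*, *NDUFB4*, *NDUFV2*, *NDUFAF1*, *NDUFAF6*, *NDUFAF7*, *UQCRB*, *UQCRC1*, *ATP5F1A*, *ATP5F1B*, *ATP5IF1*, *TFAM* and *POLRMT* were added after their values were seen. *COX7B* and *COX8A* were also named. Members and lists were chosen with earlier results of these data known. Python 3.11.15, numpy 2.4.6, scipy 1.17.1 and matplotlib 3.10.9 were used.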

Additional observations from a re-analysis of the deposited data

How the results depend on the processing

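The median log2 ratio of nuclear members (0.26), the numbers past 2-fold higher (6) and lower (2) and the summed mitochondrial ratio (-0.22) were recomputed under each alternative. With 5 reads of *KRT19* and *TBXT* added together the log2 values were 0.23 and -0.14, with 1 higher and 1 lower. Without the 100 genes of most reads in the total, the median was -0.014, 0 members were higher and the sum was -0.50, and with the median of all genes set to 0 the log2 values were -0.084 and -0.57, with 0 higher and 4 lower. The scale thus turned the sign of the pooled nuclear median, and the mitochondrial sum stayed negative in every alternative. Within tag A951, within tag A952 and by means of ln(1 + rpm), the nuclear median stayed above that of all genes. Equal weight of cells gave 0.26 and -0.21, means of ln(1 + rpm) 0.37, 1 lower and -0.45, and thinning to 50000 reads 0.30 and -0.20. Within tag A951 the log2 values were 0.31 and -0.39, with 8 higher and 4 lower, and within A952 0.38 and -0.11, with 8 higher and 3 lower. The study's limits on cells gave a sum of -0.22, weighting the others by reads per cell -0.22, and weighting them by genes per cell a median of 0.26. Leaving out each tag in turn gave medians of 0.19 to 0.33, 4 to 5 higher, 2 to 3 lower and sums of -0.39 to -0.19. No filter beyond 1 read gave a median of 0.26, and a fold of 1.5 gave 8 higher and 4 lower. No share of all genes is given beside the counts within a tag or with a tag left out. The same holds without the 100 genes of most reads, by means of ln(1 + rpm) and at a fold of 1.5. These counts thus cannot be called many or few. Leaving out cells under 0.1% mitochondrial reads, chosen after seeing the data, gave 0.28 and -0.13. Of the named genes past 2-fold, which the changes of filter and scale move too little to turn, only *RPS6KL1* changed sign under an alternative run, at -1.07 within tag A951 and at -1.88 to 2.26 with each tag left out in turn (-1.88 without A952), and the cause was not tested. *COX4I2* ranged from -7.97 to -4.41, and its mean ln(1 + rpm) gave -0.52. No paired analysis was possible because the labels give no replicate numbers; the ratios within tags A951 and A952 compare cells of the same tag. With 67 and 236 notochordal cells in the tags, values of genes at a few rpm rest on few cells.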

Other observations

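The 295 other cells with 5 or more reads of *COX4I2* were set beside the 4730 other cells with 0 reads. They were deeper, with medians of 249686 and 191568 reads and 4326 and 3721 genes. The 59 other nuclear members had a median log2 ratio of 0.002 between them, and the mitochondrial sum -0.18. *NDUFA4L2*, the other hypoxia-inducible member, was at 126.5 and 80.1 rpm, a log2 ratio of 0.66, and was higher in the cells with *COX4I2* in all 4 tags. *HIF1A*, the oxygen-regulated transcription factor, was at 700.3 and 745.7 rpm. Of genes picked after their values were seen, *LAMB1* (a laminin chain, 23.6 and 5.12 rpm), *FGF11* (34.2 and 9.28 rpm) and *SOST* (55.4 and 17.9 rpm) were higher in all 4 tags. *PENK* and *REG1A* differed in direction between tags. *OMA1* (16.4 and 165.6 rpm), *MSMP*, *S100A9* and *IBSP* were lower in all 4. No share of all genes with 1 direction in all 4 tags is given, so this agreement has no comparison. *IL17B*, a cytokine, was at 1.24 and 143.2 rpm and lower in all 4 tags, but the shares of cells with a read of it were alike, 23.4% and 24.5%. Of 7 markers of vessel wall cells, in which *COX4I2* is known, *MCAM*, *KCNJ8* and *HIGD1B* were all under 0.5 rpm, *ABCC9* was at 0.443 and 1.29 rpm, *RGS5* at 4.86 and 3.02 rpm, *PDGFRB* at 31.3 and 23.1 rpm and *CSPG4* at 28.7 and 41.6 rpm, and their part in the result was not tested.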
